A study of Mus musculus with 16 samples.

Results

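The cells described here are the epithelial-like cells of the ScxGFP iPSC-derived culture at T0, before TGF-β2 was added. They are the T0 wells with at least 200 detected genes in which the UMIs of Krt7, Cldn6, and Cdh1 added to at least 3, at least 2 of these 3 genes were detected, and the UMIs of Tdgf1 and Sox2 together did not exceed 2. A unique molecular identifier (UMI) marks 1 captured mRNA molecule, and PCR copies of it do not add to the count. Of the 1147 T0 wells with at least 200 genes, 68 met this rule: 33 on plate 1, 20 on plate 2, and 15 on plate 3. The series as a whole holds 4594 such wells on 12 plates. The 1079 other T0 wells were split into 76 pluripotent-like wells, with 3 or more UMIs of Tdgf1 and Sox2, and 1003 remaining wells.

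The iPSCs were a single clone, iPSC-20, made with Sendai virus vectors from embryonic fibroblasts of ScxGFP transgenic mice, in which a Scx reporter drives GFP. They had been kept on mitomycin-treated feeder fibroblasts of ICR mice. Before T0 the cells grew in serum-containing medium and passed through a mesodermal induction with the Wnt agonist CHIR99021 and the Hedgehog inhibitor cyclopamine. By the sample labels this induction took 4 days at all time points, and the cells then recovered without both. Cells of T3, T6, and T9 were then given TGF-β2 for 3, 6, and 9 days at 10 ng/ml. Single cells that took up Hoechst and excluded the dead-cell stain were sorted into 384-well plates, 3 plates per time point, and libraries were made by CEL-Seq2, which reads the 3′ ends of transcripts. The sources used here do not say whether the plates of a time point came from separate cultures, so the p-values below measure only the spread between plates, which may be technical. The 384 well barcodes were the same on all 3 T0 plates.

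Epithelial cells are held together by E-cadherin, the product of Cdh1, and by claudins such as Cldn6, and their inner scaffold is built of keratins, of which Krt7, Krt8, Krt18, and Krt19 mark simple, single-layered epithelia. In the embryo, cells of an epithelial sheet become mesenchymal when repressors such as Snai2 and Zeb1 shut down Cdh1 and other junction genes by binding E-box sequences near their start. Pluripotent cells also carry Cdh1 and Epcam. The rule for the 68 wells limits Tdgf1, an EGF-CFC co-receptor of Nodal, and Sox2, a core pluripotency factor.

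The T0 plates held 3716419 to 4657093 UMIs in wells with at least 200 genes. The 68 epithelial-like wells had a median of 13632.5 UMIs and 4231 genes, 1.41 times the median UMIs of the remaining wells (9677), and the pluripotent-like wells had 18080. Their UMIs summed to 496219, 270465, and 184084 on plates 1, 2, and 3. Expression is in CPM, that is, a gene's share of all UMIs of the set on a plate times 1000000, with values of plates 1, 2, and 3 in this order.

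The values that chose the wells are given as a description, with no test. Krt7 stood at 304, 739 and 549 CPM in the epithelial-like wells and at 7.51, 8.06 and 4.31 CPM in the remaining wells. Cldn6 stood at 449, 1235 and 1249 CPM against 21.7, 18.9 and 38.2 CPM, and Cdh1 at 675, 1102 and 880.0 CPM against 16.5, 17.5 and 21.9 CPM. All 3 genes were detected in 33 of the 68 wells and only 2 in 35, and of these 35 wells 27 had no Krt7. Cdh1 was found in 65 wells, Cldn6 in 63, and Krt7 in 41. The 3 genes summed to between 3 and 181 UMIs per well with a median of 20, and 48 wells had 10 or more. Just inside the limit were 12 wells with exactly 3 UMIs, and just outside it 46 remaining wells with 2 UMIs of 2 of the genes. Another 14 remaining wells held 3 or more UMIs of a single gate gene, and 659 of the 1003 held none. Tdgf1 and Sox2 were at 0 UMIs in 44 of the 68 wells, at 1 in 19, and at the limit of 2 in 5. Of the 76 pluripotent-like wells, 32 met the Krt7, Cldn6, and Cdh1 condition and were kept out by Tdgf1 and Sox2 alone, and 6 of the 76 had exactly 3 UMIs of these genes.

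Krt18 and Rhox9, an X-linked homeobox gene best known from placenta and germ cells, were also given as markers of these cells and are therefore described without a test. Krt18, at chr15:102028180-102032027 of GRCm38, was at 1538, 2947 and 1912 CPM in the epithelial-like wells, 23.1, 45.3 and 22.5 CPM in the remaining wells, and 41.4, 22.2 and 148 CPM in the pluripotent-like wells. It was detected in 54 of the 68 wells. Rhox9, at chrX:37899097-37901770, was at 582, 99.8 and 92.3 CPM against 5.20, 0.556 and 0.308 CPM in the remaining wells, but it came from only 17 of the 68 wells. On plate 1 it was highest, and there 3 wells gave 188 of its 289 UMIs. Thus Krt18 was a marker of most of the gated wells and Rhox9 of a minority of them.

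The epithelial-like wells made up 8.64% of the wells on plate 1 (95% Clopper-Pearson interval, 6.02 to 11.9%), 5.22% on plate 2 (3.22 to 7.95%), and 3.93% on plate 3 (2.21 to 6.39%), a mean of 5.93% ± 2.43 (SD, n = 3 plates). The intervals cover counting error only. Median UMIs per well were 11492, 10470, and 9031 on the same plates, in the order of the shares. When each well was thinned to 3000 UMIs at random and the rule was applied again, the shares were 3.98, 3.59, and 3.36% of the 1071 wells deep enough. Without plate 1 the mean share was 4.57%. Among the 3447 wells of T3, T6, and T9 the same rule found 19. The mean shares there were 0.174% ± 0.151 at T3, 0.696% ± 0.544 at T6, and 0.786% ± 0.526 at T9 (SD, n = 3 plates each). On the first T3 plate 0 of 384 wells were found. This allows a share of up to 0.781% by the limit of 3 wells and of up to 0.956% by the Clopper-Pearson interval. Plate medians of UMIs per well were 4575 to 7039.5 at T3, 7724 to 10097 at T6, and 7238 to 9146 at T9. Whether this depth moved the later shares was not tested.

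**Figure D1:**
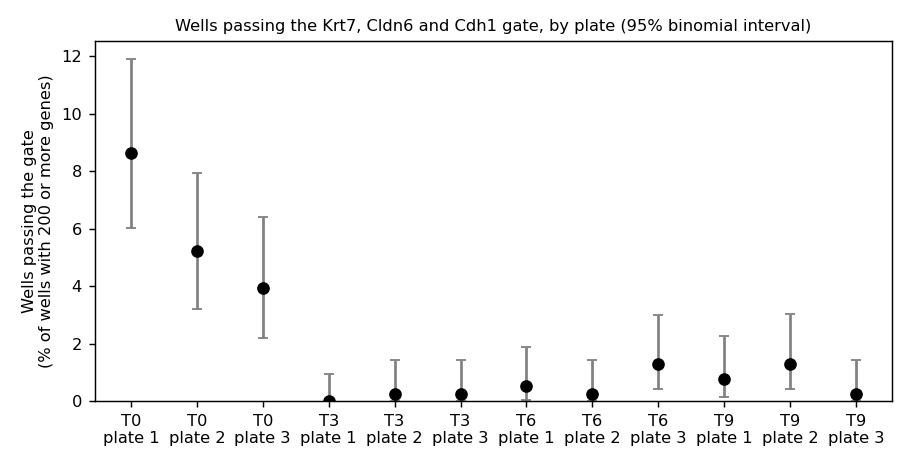
Share of wells that passed the Krt7, Cldn6, and Cdh1 rule on each of the 12 plates, in percent of the wells with at least 200 genes, with 95% Clopper-Pearson intervals. The 3 T0 plates lie between 3.93 and 8.64%, and the 9 plates of T3, T6, and T9 between 0 and 1.31%.

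Against all other T0 wells, the epithelial-like wells had a broad epithelial program in addition to the gate genes, together with placental genes, and lower mesenchymal, Hox, and retinoic acid genes. UMIs were summed over the wells of each set on each plate and compared with edgeR's quasi-likelihood test, with the plate as a term. Of 11053 genes tested, 935 were higher (8.46%) and 661 lower (5.98%) in the epithelial-like wells at an adjusted p of 0.05. Leaving out plate 3 lowered the calls from 1596 to 922. Since wells were chosen by Krt7, Cldn6, and Cdh1, the test shows which genes accompanied these across wells, and the 5 genes of the rule were not tested. With only the 48 wells that held 10 or more UMIs of the gate genes, a setting chosen after seeing the data, the calls were 1245 higher and 1313 lower. The gene lists below are described by their counts and median log2 fold change, and the median over all tested genes was -0.06.

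Of 41 listed genes of epithelial junctions and identity, the marker Krt18 left out, 32 had counts high enough to be tested, and 31 of these were higher in the epithelial-like wells and none lower, with a median log2 fold change of 3.66. The remaining tested gene, the P-cadherin gene Cdh3, was at 52.3 ± 20.5 CPM against 25.3 ± 3.06 CPM (SD, n = 3 plates, adjusted p = 0.0677). Krt8, the partner of Krt18 in keratin filaments, was at 169, 240.3 and 223 CPM in the epithelial-like wells and at 3.85, 4.69 and 4.81 CPM in the other wells (log2 fold change 5.53 ± 0.26, adjusted p = 5.47e-10). Krt19, the smallest keratin of simple epithelia, was at 197, 203 and 212 CPM against 4.81, 5.68 and 8.49 CPM (5.03 ± 0.27, adjusted p = 2.37e-09). For both keratins the plates of one set lay close together and far from those of the other. Krt8 was detected in 41 of the 68 wells, and after thinning to 3000 UMIs in 36.9% of epithelial-like, 1.40% of remaining, and 1.32% of pluripotent-like wells.

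The junction genes followed the keratins. Cldn4 was at 107, 355 and 136 CPM against 6.25, 5.68 and 18.4 CPM (4.31 ± 0.41, adjusted p = 1.74e-06) and Cldn7 at 80.6, 181 and 136 CPM against 3.36, 2.47 and 5.38 CPM (5.09 ± 0.37, adjusted p = 7.21e-08), and both encode claudins of tight junctions. Dsp, the desmoplakin that anchors keratins to desmosomes, was at 92.7, 303 and 168 CPM against 19.5, 12.8 and 21.2 CPM (3.27 ± 0.34, adjusted p = 4.44e-06). Each of these 3 genes was higher on every plate. Among regulators, Elf3, an epithelial ETS factor, had a log2 fold change of 3.42 ± 0.45, adjusted p = 5.29e-05, Ovol2, which holds cells in the epithelial state, of 3.51 ± 0.84, adjusted p = 0.00882, Grhl2, a Grainyhead factor that activates Cdh1 and claudins, of 3.28 ± 0.79, adjusted p = 0.00928, and the splicing factor Esrp1 of 3.66 ± 0.72, adjusted p = 0.00206. These 4 regulators were low throughout, with no plate of the epithelial-like wells above 70.5 CPM. Thinning to 3000 UMIs left 20 genes of the list higher, Krt18 included.

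The promoters of these genes are shown because the E-box CACCTG, the sequence read by Snai2 and Zeb1, was frequent in them. The letters CACCTG, or their reverse complement CAGGTG, were searched in RefSeq windows of GRCm38.p6 that run from 250 bases before to 50 bases after each gene's start. Of the 32 epithelial-list genes that were higher, Krt18 included, 20 had an entry, and 15 of these held the E-box: Ap1m2, Cldn3, Cldn4, Cldn7, Crb3, Dsp, Elf3, Epcam, F11r, Krt18, Krt8, Marveld2, Ocln, Pard6b, and Spint2. The share was 22.6% of all 27025 genes with an entry, 19.3% of the 8258 tested genes with one, 30.3% of the 709 genes that were higher in the epithelial-like wells, and 12.6% of the 485 that were lower. Over the whole epithelial list, called or not, 18 of the 25 genes with an entry held the E-box (72%). Its frequency was therefore a feature of the list and not only of the genes that were higher. Of the gate genes, Krt7 and Cldn6 had an entry, and both held it. For 7 of these genes the E-box nearest to the gene start is given below in capitals, with up to 12 bases on either side, 5′ to 3′ on the gene's strand.
Krt7, chr15:101412347-101412376, plus strand: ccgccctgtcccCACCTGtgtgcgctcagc
Cldn6, chr17:23679393-23679414, plus strand: cagtctcttttgCAGGTGagcc
Krt18, chr15:102027990-102028019, plus strand: aggggctaacacCACCTGctatcctttgtg
Epcam, chr17:87635948-87635977, plus strand: acccataaaaccCAGGTGtggaggagaagc
Cldn4, chr5:134946906-134946935, minus strand: cctttcttgttgCAGGTGcaggcaggaaag
Cldn7, chr11:69965352-69965381, plus strand: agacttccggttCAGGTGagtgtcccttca
Crb3, chr17:57062214-57062243, plus strand: gcgctctttgccCAGGTGggtgactaaact
Counted from the RefSeq start, the E-box began 44 bases before it in Krt7, 214 in Krt18, 19 in Epcam, 57 in Cldn7, and 5 in Crb3. It began 40 bases after the RefSeq start in Cldn6 and 11 after in Cldn4. There were 32851 windows for 27025 genes, so that some genes had more than 1 start. RefSeq starts can differ from the GENCODE M21 coordinates given for genes. In GENCODE, Cldn7 starts at 69964779 and Crb3 at 57059105, so that their printed E-boxes lie inside the gene. A match is a description of the sequence and not of a bound site.

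**Figure D2:**
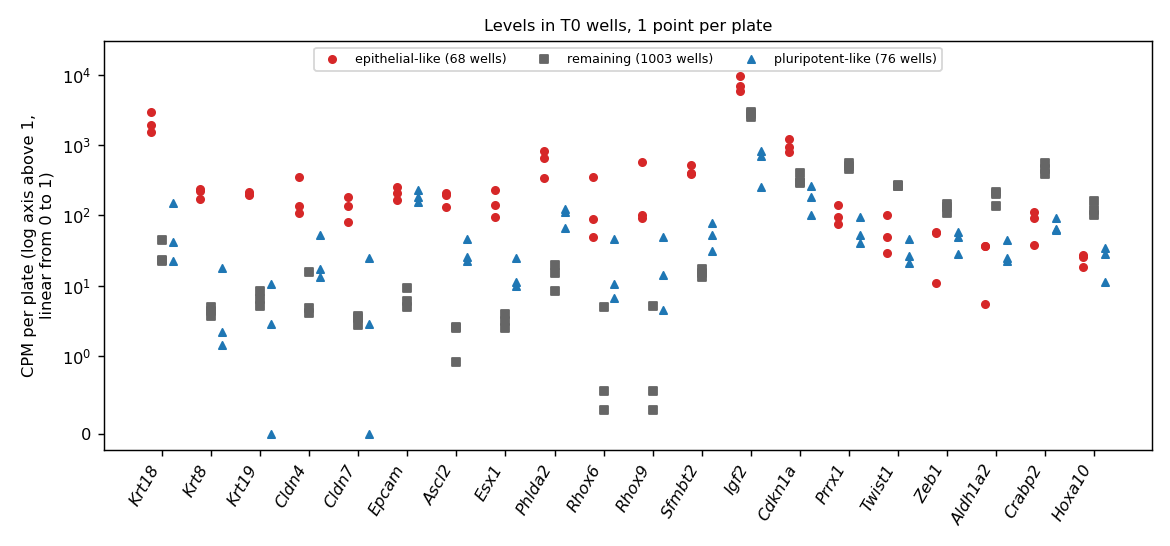
Levels of 20 genes in CPM (log axis above 1 CPM, linear from 0 to 1) in the epithelial-like, remaining, and pluripotent-like T0 wells, with 1 point per plate. Keratin and claudin genes and the placental genes lie highest in the epithelial-like wells, Epcam is as high in the pluripotent-like wells, and Prrx1, Twist1, Zeb1, Aldh1a2, Crabp2, and Hoxa10 are highest in the remaining wells.

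Genes of the placenta formed another group. Of 24 listed trophoblast genes, 18 were in the table, 10 were tested, and 9 were higher in the epithelial-like wells (Ascl2, Phlda2, Gata2, Esx1, Tfap2c, Tead4, Hand1, Cited1, and Peg10), with a median log2 fold change of 4.09. The other, Gata3, was at 69.0 ± 16.2 CPM against 78.7 ± 5.37 CPM (adjusted p = 0.61). Ascl2, a factor that trophoblast progenitors of the placenta need, was at 133, 192 and 206 CPM against 6.49, 4.69 and 4.53 CPM in the other wells (5.01 ± 0.30, adjusted p = 1.08e-08). Phlda2, an imprinted gene that restrains placental growth, was at 339, 817 and 652 CPM against 31.2, 30.9 and 13.0 CPM (4.51 ± 0.28, adjusted p = 1.32e-08). Esx1, an X-linked homeobox gene of the labyrinth, was at 94.7, 229 and 141 CPM against 4.33, 4.69 and 4.25 CPM (5.03 ± 0.32, adjusted p = 1.56e-08). In all 3 the plates of both sets did not overlap, as was the case for 17% of all tested genes in this direction. Of the 68 wells, 12 held Ascl2, 26 Phlda2, and 19 Esx1. A single well gave 40 of the 66 Ascl2 UMIs on plate 1, another 30 of 52 on plate 2, and another 31 of 38 on plate 3.

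Hand1, a bHLH factor of giant cells and of the heart, was at 105, 211 and 92.3 CPM against 4.09, 12.6 and 2.83 CPM (4.46 ± 0.32, adjusted p = 6.11e-08). Gata2, which acts in trophoblast and in blood, was at 256, 189 and 168 CPM against 13.7, 17.5 and 20.7 CPM (3.59 ± 0.26, adjusted p = 6.11e-08), and Tfap2c, an AP-2 factor of trophoblast, germ cells, and surface ectoderm, at 117, 152 and 185 CPM against 9.13, 7.16 and 3.68 CPM (4.44 ± 0.34, adjusted p = 1.19e-07). Each was found in 14 to 21 of the 68 wells. A single well gave 37 of the 126 Hand1 UMIs of the 68 wells, another 48 of the 209 of Gata2, and another 41 of the 133 of Tfap2c. The defining markers of trophoblast stem cells and of the mature placenta were at or near 0: Eomes, Elf5, Tpbpa, and Prl3b1 had no UMI in any of the 68 wells, Cdx2 had 2 UMIs in all, and Gcm1 had 1. The summed level of the 18 trophoblast genes was 4266 to 5954 CPM in the epithelial-like wells and 1402 to 1542 CPM in the others, and most of it was Peg10.

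Of 12 listed genes of the Rhox cluster, the marker Rhox9 left out, 5 were in the table, and the 2 with counts high enough to be tested, Rhox5 and Rhox6, were higher than in the other wells. Rhox6 was at 347, 88.7 and 48.9 CPM against 11.8, 1.24 and 1.13 CPM (5.22 ± 0.33, adjusted p = 1.40e-08), with plate 1 highest in both sets. Rhox5, which is known from several embryonic and placental lineages, was at 123, 355 and 54.3 CPM against 68.0, 63.5 and 54.4 CPM, and its plates overlapped (1.35 ± 0.31, adjusted p = 0.00724). Rhox6 and Rhox9 are similar paralogs, so that reads could have been split between them. Of the 68 wells, 20 had Rhox6 or Rhox9, 13 of them both.

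Some imprinted genes of fetal growth were higher in these wells and others were not, and those described here were named after their values were seen. Igf2, the fetal growth factor, was at 7047, 5934 and 9599 CPM against 2205, 2645 and 2633 CPM (1.56 ± 0.14, adjusted p = 7.93e-07), and H19, its neighbour on chromosome 7, at 5814, 3934 and 3379 CPM against 1809, 1922 and 1931 CPM (1.17 ± 0.16, adjusted p = 7.25e-05). Peg10, a retrotransposon-derived gene needed for the placenta, was at 3083, 3054 and 4134 CPM against 1232, 1373 and 1364 CPM (1.35 ± 0.13, adjusted p = 1.67e-06). Every plate of the epithelial-like wells lay above every plate of the other wells for all 3. Sfmbt2, a Polycomb gene imprinted in extraembryonic tissue that was on no list and was chosen after its values were seen, was at 401, 518 and 386 CPM against 21.4, 15.3 and 22.1 CPM (4.46 ± 0.21, adjusted p = 5.31e-10) and was found in 47 of the 68 wells. Within the list of metabolic and oncofetal genes, H19, Igf2, and Lin28a were higher, and Mest (-1.45 ± 0.20, adjusted p = 7.09e-05), Hmga2 (-0.99 ± 0.14, adjusted p = 8.10e-05), and Lin28b (-1.09 ± 0.33, adjusted p = 0.0374) were lower, of 14 listed and 13 tested, with a median log2 fold change of -0.12. The imprinted genes Cdkn1c (0.21 ± 0.13, adjusted p = 0.336), Dlk1 (-0.70 ± 0.25, adjusted p = 0.0657), and Peg3 (-0.17 ± 0.13, adjusted p = 0.436) of this list did not pass the test.

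Of 36 genes of mesenchymal identity and EMT, 30 were tested, 12 were lower in the epithelial-like wells, and 1, Sparc, was higher (0.68 ± 0.13, adjusted p = 0.00175), with a median log2 fold change of -0.92. Prrx1, a homeobox gene of limb and lateral mesoderm, was at 139, 96.1 and 76.1 CPM against 396, 453 and 515 CPM (-2.04 ± 0.22, adjusted p = 5.19e-06). The E-box repressors Snai2 and Zeb1 were at 33.4 ± 13.2 and 41.6 ± 26.6 CPM against 83.4 ± 2.02 and 119.9 ± 19.2 CPM (SD, n = 3 plates; log2 fold change -1.32 ± 0.29, adjusted p = 0.00535, and -1.34 ± 0.31, adjusted p = 0.00656). Cdh2, the N-cadherin gene, was at 16.1, 29.6 and 0 CPM against 61.5, 57.6 and 63.7 CPM (-1.87 ± 0.43, adjusted p = 0.00728), and Twist1 at 103, 29.6 and 48.9 CPM against 227, 232 and 252 CPM (-1.87 ± 0.27, adjusted p = 1.65e-04). For all 5, the plates of the epithelial-like wells lay below all plates of the other wells, as they did for 19.6% of all tested genes. Meox1, a factor of the somites, had no UMI in the epithelial-like wells and 165 in the others, at least 4.45-fold lower against a floor of 3 UMIs over all wells of the set. Vim, the vimentin gene, differed widely between plates, at 840.4, 325 and 125 CPM against 661, 547 and 546 CPM (adjusted p = 0.164). With the wells that held 10 or more UMIs of the gate genes, 19 genes of this list were lower, and after thinning Snai2 had an adjusted p of 0.0568.

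Of 39 Hox genes, 27 were tested, 11 were lower and none higher in the epithelial-like wells, with a median log2 fold change of -1.04. Hoxa10 was at 18.1, 25.9 and 27.2 CPM against 90.1, 143 and 113 CPM (-2.31 ± 0.28, adjusted p = 2.18e-05), Hoxd10 at 24.2, 18.5 and 10.9 CPM against 106, 96.8 and 83.5 CPM (-2.33 ± 0.31, adjusted p = 5.32e-05), and Hoxd13 at 16.1, 14.8 and 16.3 CPM against 67.3, 86.2 and 61.1 CPM (-2.18 ± 0.34, adjusted p = 3.38e-04). These are genes of the posterior trunk and limb. The summed level of the 39 genes was 671 to 706 CPM in the epithelial-like wells and 1423 to 1524 CPM in the others. Hoxd10 overlaps the exons of Gm28309 on the same strand, so that its reads cannot be told apart from that gene's.

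Of 19 genes of the retinoic acid pathway, 13 were tested and 6 were lower, none higher, with a median log2 fold change of -1.32. Aldh1a2, the enzyme that makes retinoic acid, was at 36.3, 37.0 and 5.43 CPM against 119.7, 193 and 185 CPM (-2.39 ± 0.32, adjusted p = 6.48e-05). Crabp2, which carries it to its receptors, was at 111, 92.4 and 38.0 CPM against 334, 503 and 422 CPM (-2.25 ± 0.25, adjusted p = 7.80e-06), and the receptor gene Rarb at 16.1, 29.6 and 5.43 CPM against 71.1, 89.7 and 93.1 CPM (-2.20 ± 0.35, adjusted p = 3.88e-04). In each the epithelial-like wells were lower on all 3 plates. Crabp1, Rdh10, and Dhrs3 were the others that were lower.

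Genes of dividing cells were lower in part and response genes of p53 higher. Of 42 S phase genes, 16 of 41 tested were lower, and of 52 genes of the G2 and M phases 14 of 52 tested, with none higher in either list and medians of -0.63 and -0.32. Top2a, a topoisomerase of dividing cells, was at 506, 492 and 353 CPM against 910.4, 939 and 992 CPM (-1.07 ± 0.16, adjusted p = 1.71e-04). The counts varied with the plates used: without plate 2 they were 7 and 8, and without plate 3 they were 6 and 2. DESeq2 called 6 and 7. Calls fell over all genes too. Genes called lower went from 661 to 431 of 11311 tested without plate 2 and to 316 of 11386 without plate 3. With DESeq2 they were 351 of 11053. With the wells that held 10 or more UMIs of the gate genes, 25 S phase genes were lower. Of 13 p53 response genes, 12 were tested and 7 were higher, none lower, with a median log2 fold change of 1.28. Cdkn1a, the p21 inhibitor of the cell cycle, was at 945, 1220.1 and 788 CPM against 365, 281 and 290.2 CPM (1.64 ± 0.16, adjusted p = 1.95e-06), and Mdm2, the ligase that degrades p53, at 294, 299 and 272 CPM against 103, 97.8 and 102 CPM (1.51 ± 0.17, adjusted p = 7.70e-06). Perp, a p53 target that also acts in desmosomes, was at 88.7, 85.0 and 119.5 CPM against 6.73, 3.46 and 7.08 CPM (4.07 ± 0.35, adjusted p = 5.94e-07). All 3 were higher on each plate.

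The stress and immediate early list was split, with 5 of 15 tested genes higher and 5 lower. Hspb1, a small heat shock protein gene, was at 1193, 2906 and 1412 CPM against 279.5, 242 and 185 CPM (2.86 ± 0.21, adjusted p = 6.11e-08), and Atf3 at 88.7, 325 and 86.9 CPM against 28.1, 45.7 and 36.2 CPM (2.03 ± 0.27, adjusted p = 7.07e-05). Egr1 was lower, at 78.6, 126 and 152 CPM against 309.6, 378 and 355 CPM (-1.63 ± 0.18, adjusted p = 1.15e-05). Without plate 3, the counts were 3 higher and 3 lower. The cells were dissociated with trypsin before sorting, and whether this moved any of these genes was not tested.

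Lists of other cell types showed where the epithelial genes did and did not extend. Of 21 basement membrane and laminin genes, 16 were tested and 12 were higher, none lower, with a median log2 fold change of 1.36. Among them Lamb1, a laminin chain, was at 159, 255 and 244 CPM against 83.2, 77.8 and 87.2 CPM (1.36 ± 0.19, adjusted p = 1.02e-04). Of 23 genes of surface ectoderm and epidermis, 11 were tested and 7 were higher (Dlx3, Perp, Tfap2a, Msx2, Wnt7b, Wnt6, and Sfn), while Trp63, the master gene of stratified epithelium, had no UMI in the 68 wells, and Krt1 and Krt17 had none either. Of 15 parietal endoderm genes, 13 were tested, 7 were higher (Lamb1, Sparc, Ctsl, Lamc1, Col4a1, Col4a2, and Lama1, which encode mostly matrix proteins), and Plat was lower. Of the 60 UMIs of Lama1, 53 came from 3 of the 68 wells, of which 2 also held Sox17 and 1 Srgn. Of 27 visceral and definitive endoderm genes only 3 had enough counts to be tested and none was called, and Hnf4a, Afp, Ttr, and Cer1 were at 0 in the 68 wells.

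Of 14 amnion genes, 4 were higher and 2 lower, of 15 germ cell genes other than Rhox9 3 higher (Rhox5, Rhox6, and Tfap2c) and 1 lower, and of 14 mesothelium genes other than Krt18 4 higher (Krt19, Krt8, Podxl, and Ezr) and 2 lower (Aldh1a2 and Wt1). No nephric or neural gene was higher, and Pax2, Lhx1, and Ret were at 0. The lists of endothelium and blood had 1 tested gene each, and Runx1 was higher. Of 4 tested genes of the primitive streak and nascent mesoderm, Hand1 was higher. Of the 12 feeder fibroblast genes, 8 were tested and 5 were lower, with a summed level of 366 to 901 CPM in the epithelial-like wells against 1591 to 1683 CPM. Of 22 pluripotency genes, 3 were higher (Tfcp2l1, Tfap2c, and Lin28a) and 7 lower against all other wells. When the pluripotent-like wells were left out of the comparison, 8 were higher and 0 lower. Over all 10858 genes tested in that comparison, 1086 were higher and 801 lower. Of the signalling lists, 2 of 24 tested TGF-β, BMP, and activin genes were higher (Smad2 and Smad7) and 1 lower (Id3), 4 of 10 FGF genes were lower, and of 22 Wnt genes 2 were higher (Wnt7b and Wnt6) and 6 lower. Of 10 tested tendon and cartilage progenitor genes, 4 were lower (Sox9, Tnc, Egr1, and Sox5), and without plate 2 or without plate 3, 2 were.

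**Figure D3:**
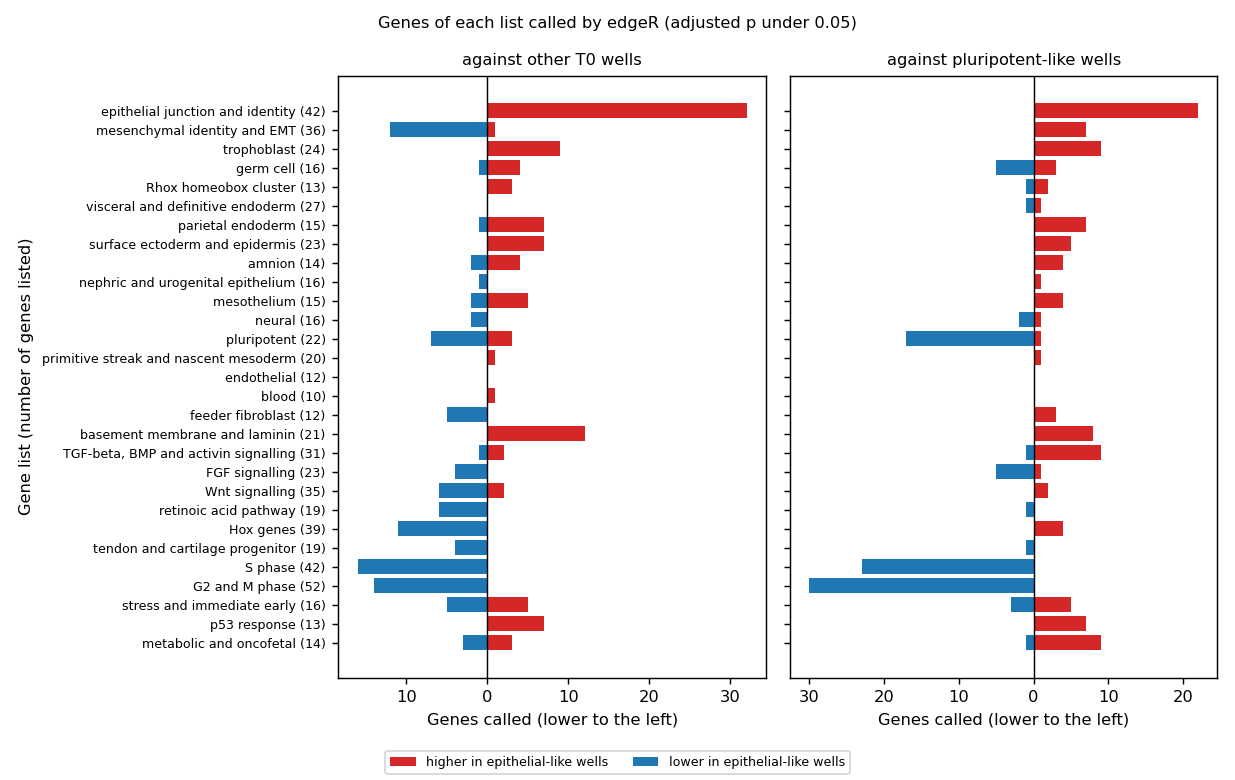
Number of genes of each list that edgeR called higher (to the right) or lower (to the left) in the epithelial-like wells, against all other T0 wells (left panel) and against the pluripotent-like wells (right panel). The epithelial list leads on the right side of the left panel with 32 genes, Krt18 included, and the cell cycle lists lead on the left side of the right panel with 23 and 30.

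Among the genes with the largest differences and plates that did not overlap were, on the higher side, beside the markers Krt18 and Rhox9, the genes Nxf7, Cdcp1, Tmprss2, Krt8, 3830417A13Rik, Irx4, and Cryab. Nxf7, an X-linked member of the nuclear RNA export factor family, had 56 UMIs in the epithelial-like wells and 3 in all other wells, 231-fold (95% counting interval, 74.9 to 1151) higher. Tmprss2, a serine protease gene of epithelial surfaces, was at 101, 240.3 and 342 CPM against 3.61, 2.47 and 3.68 CPM (5.95 ± 0.33, adjusted p = 4.86e-09). Cdcp1, a transmembrane protein gene of epithelia, was at 38.3, 118 and 76.1 CPM against 0.721, 0.247 and 1.98 CPM (6.22 ± 0.62, adjusted p = 2.72e-06). Not every well held them, with UMIs of Nxf7 in 14, of Tmprss2 in 34, and of Cdcp1 in 27 of the 68. Irx4, a homeobox gene, had a log2 fold change of 5.38 ± 0.57, adjusted p = 5.19e-06. Cryab, a small heat shock protein gene, was at 248, 651 and 619 CPM against 7.93, 11.6 and 16.1 CPM (5.35 ± 0.20, adjusted p = 3.38e-11). The exons of Cryab overlap those of Hspb2, those of Krt7 overlap Gm671, and those of Krt8 overlap Gm36026, each on the opposite strand, and the use of strand in counting is not given in the sources used here.

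On the lower side stood Shisa3, Aldh1a2, Stxbp6, Hoxd10, Unc5c, Phactr2, Hoxa10, Robo2, Crabp2, and Wasf1. Shisa3, of a family that holds back Wnt and FGF receptors, had 2 UMIs in the epithelial-like wells and 743 in the others, 30.1-fold (95% counting interval, 8.30 to 249) lower. Unc5c, a netrin receptor gene, was at 60.5, 29.6 and 43.5 CPM against 224, 264 and 219 CPM (-2.33 ± 0.25, adjusted p = 5.22e-06), and Robo2, a Slit receptor gene, at 20.2, 0 and 27.2 CPM against 74.7, 74.9 and 79.8 CPM (-2.29 ± 0.43, adjusted p = 0.00158). Both guide cells and axons, and both were lower on every plate. Stxbp6 (-2.34 ± 0.40, adjusted p = 6.17e-04) and Wasf1 (-2.25 ± 0.42, adjusted p = 0.00139) were not past the threshold after thinning to 3000 UMIs, with adjusted p of 0.0997 and 0.087.

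Against the 76 pluripotent-like wells, the keratins, Cldn4, and Cldn7 were also higher, while Epcam did not pass the test. The epithelial-like wells of this comparison are the same as above, so that both comparisons share them. Of 6280 genes tested, 1043 were higher (16.6%) and 976 lower (15.5%) in the epithelial-like wells, and without plate 1 the calls fell from 2019 to 1141. Of the 41 epithelial genes other than Krt18, 23 were tested, 21 were higher and none lower, with a median log2 fold change of 2.198 against -0.03 over all tested genes. Krt18 stood at 1538, 2947 and 1912 CPM in the epithelial-like and 41.4, 22.2 and 148 CPM in the pluripotent-like wells. Krt8 was at 1.43, 2.22 and 17.6 CPM in the pluripotent-like wells (log2 fold change 5.22 ± 0.44, adjusted p = 2.66e-07) and Krt19 at 2.86, 0 and 10.6 CPM (5.69 ± 0.45, adjusted p = 1.39e-07). In the pluripotent-like wells all 3 keratins were highest on plate 3. Epcam was at 165, 211 and 249.9 CPM in the epithelial-like and 156, 182 and 229 CPM in the pluripotent-like wells (0.10 ± 0.20, adjusted p = 0.726).

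Anxa1, an annexin gene, was at 206, 588 and 1059 CPM against 12.9, 0 and 3.53 CPM (5.99 ± 0.47, adjusted p = 1.39e-07), and Cryab at 248, 651 and 619 CPM against 2.86, 2.22 and 10.6 CPM (6.58 ± 0.34, adjusted p = 2.90e-09). Anxa1 was found in 38 of the 68 epithelial-like wells, and a single well gave 155 of its 195 UMIs on plate 3. The other named genes on the higher side were Cdcp1, Nxf7, Egfr, Anxa4, and Prss23. Egfr, the EGF receptor gene, had 47 UMIs in the epithelial-like wells and 2 in the pluripotent-like wells, 35.5-fold (95% counting interval, 9.29 to 301) higher. Prss23, a secreted serine protease gene, was at 103, 177 and 92.3 CPM against 8.57, 2.22 and 0 CPM (4.60 ± 0.51, adjusted p = 4.94e-06).

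All 9 trophoblast genes tested against the pluripotent-like wells were higher, of 24 listed, and here Gata3 was among them, at 64.5, 55.5 and 86.9 CPM against 20.0, 4.43 and 21.2 CPM (2.14 ± 0.45, adjusted p = 0.00163). Ascl2 and Phlda2 were at 25.7, 22.2 and 45.8 CPM and 111, 122 and 67.0 CPM in the pluripotent-like wells, above their levels in the remaining wells (2.60, 2.50 and 0.923 and 15.0, 19.5 and 8.31 CPM). Their log2 fold changes were 2.49 ± 0.28 and 2.41 ± 0.25 (adjusted p = 5.86e-06 and 2.36e-06). Rhox6 was higher (2.95 ± 0.32, adjusted p = 3.57e-06) and Rhox5 lower (-0.98 ± 0.29, adjusted p = 0.0169), with Rhox5 at 289, 346 and 286 CPM in the pluripotent-like wells. Igf2 was at 821, 253 and 705 CPM in the pluripotent-like wells (3.74 ± 0.22, adjusted p = 1.43e-08).

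Of 22 pluripotency genes, 18 were tested, 17 were lower and 1, Tfap2c, was higher, and wells with Tdgf1 and Sox2 had been chosen for the pluripotent-like set, so that this direction is tied to the choice. Nanog had 3 UMIs in the epithelial-like and 479 in the pluripotent-like wells, 106-fold (95% counting interval, 36.0 to 515) lower, and Fgf4 had 1 and 218. Trh, Myo1f, Platr10, and Mep1b had none in the epithelial-like wells, and were at least 25.8-, 26.3-, 26.1-, and 23.0-fold lower against the floor of 3 UMIs. Nr0b1, Jam2, Lefty1, and Morc1 were the other named genes on this side, with 1 to 4 UMIs each in the epithelial-like wells. Of the mesenchymal list, 7 of 13 tested genes were higher than in the pluripotent-like wells (Sparc, Col3a1, Fn1, Vim, Col5a1, Pdgfra, and Prrx2). With the wells that held 10 or more UMIs of the gate genes, 4 were higher. S phase genes were lower in 23 of 36 tested and G2 and M phase genes in 30 of 49, and without plate 1 in 14 and 17. Without plate 1, lower calls over all genes also fell, from 976 to 543 of 5545 tested. Of p53 response genes, 7 of 11 tested were higher, and Cdkn1a stood at 183, 102 and 265 CPM in the pluripotent-like wells (2.45 ± 0.26, adjusted p = 3.56e-06). Of 14 tested TGF-β, BMP, and activin genes, 9 were higher than in the pluripotent-like wells, among them Tgfb2 at 86.7, 96.1 and 59.8 CPM against 20.0, 2.22 and 7.05 CPM (2.91 ± 0.50, adjusted p = 2.96e-04).

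The 68 wells were not alike. They are described below as 3 kinds of wells that were set after the values were seen, so that no test is given. The first kind was 20 wells with UMIs of 3 or more of the 8 genes Ascl2, Esx1, Phlda2, Gata2, Hand1, Tfap2c, Rhox6, and Rhox9, with 10, 6, and 4 wells on plates 1, 2, and 3. The second was 31 wells with fewer of these genes and 2 or more UMIs of Krt18 (12, 10, and 9 wells). The third was 17 wells with fewer of these genes and 0 or 1 UMI of Krt18 (11, 4, and 2 wells). Median UMIs per well were 17789, 11504, and 12981 in the 3 kinds. The share of wells with 3 or more of the 8 genes was 29.4% in the epithelial-like, 22.4% in the pluripotent-like (17 of 76), and 0.499% in the remaining wells (5 of 1003). After thinning to 3000 UMIs it was 27.7, 3.95, and 0% (0 of 930 wells).

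The split itself fixed that the 8 placental genes were more frequent in the first kind, and their counts are given as a description. Esx1 was found in 18 of its 20 wells, Tfap2c in 17, Rhox6 in 15, Rhox9 in 14, and Ascl2 in 11, against 1, 3, 1, 2, and 1 of the 31 wells of the second kind. Krt7 was found in 19 of 20 wells with a median of 416 CPM, and Epcam in 20 of 20, while the second kind had Krt7 in 15 of 31. Over plates 1, 2, and 3, H19 was at 10901, 6781 and 4257 CPM in the first kind and at 3923, 1590.3 and 3414 CPM in the second, and Sfmbt2 at 944, 895 and 501 CPM and 169, 388 and 355 CPM. Peg10 was at 5032, 5678 and 6098 CPM and 2569, 1367 and 3018 CPM. For Igf2 the plates of both overlapped, at 9059, 10036 and 15187 CPM and 9272, 3840.0 and 7622 CPM. The first kind also held some pluripotency genes. The 21 listed genes other than Tfap2c summed to 714 CPM in its median well and to 189 CPM in the second kind. In the remaining wells the median was 99.96 CPM, and in the pluripotent-like wells 6198 CPM.

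The second kind had plate levels of Krt18 that overlapped those of the first and was set apart by Cdkn1a and other p53 response genes. Over the plates, Krt18 was at 1589.6, 3326 and 2161 CPM in the second kind and 2797, 4087 and 2136 CPM in the first. Cdkn1a was at 1789, 2599 and 1284 CPM and 461, 479 and 177 CPM. Cdkn1a reached 500 CPM in 21 of the 31 wells of the second kind and in 4 of the 20 of the first, and its highest well stood at 8579 CPM. Anxa1 was found in 24 of 31 wells of the second kind, with a plate level of 308, 1309 and 1932 CPM. In the first kind it was found in 11 of 20 wells, at 247, 217 and 147 CPM. Of its UMIs in the second kind, a single well gave 78 of 135 on plate 2, and another 155 of 185 on plate 3. Summed over the 42 genes of the S phase list, the median well had 1588 CPM in the second kind, 3078 CPM in the first, and 4133 CPM in the remaining wells. The 13 p53 response genes summed to 3995 CPM in the median well of the second kind, to 1377 CPM in the first, and to 642 CPM in the remaining wells. Median UMIs per well were 11504 in the second kind, 17789 in the first, and 9677 in the remaining wells. Whether this depth moved the medians of the lists was not tested.

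The third kind lay at the edge of the rule and had few epithelial genes beyond it. Its median well had 3 UMIs of the gate genes, against 26 and 34 in the second and first kinds, and 16 of the wells with 0 or 1 UMI of Krt18 had 7 or fewer. Of the 41 genes of the epithelial list other than Krt18, the median well held 2, against 12 in the second kind, 19 in the first, and 1 in the remaining wells. By summed level of these genes the first 2 kinds were close, at 3267 CPM in the median well of the first and 3242 CPM in the second. The median was 239 CPM in the third kind and 140 CPM in the remaining wells. Krt19 was found in none of the 17 wells, Krt8 in 2, and Epcam in 1. Prrx1 was found in 12 of the 17 wells with a median of 353 CPM, and Hmga2, an oncofetal chromatin protein gene that was high in the remaining wells, in all 17 with a median of 1618 CPM against 299.7 and 539.9 CPM in the first and second kinds. The 36 mesenchymal genes summed to 5242 CPM in the median well, close to the 5424 CPM of the remaining wells, and to 1645 and 3176 CPM in the first and second kinds. Thus these 17 wells, 11 of them on plate 1, met the rule with few of the other listed epithelial genes, at most 9 of the 41 in any well. A single well of the third kind, on plate 2, held 32 UMIs of Srgn and 27 of Lama1, and no other epithelial-like well had Srgn.

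**Figure D4:**
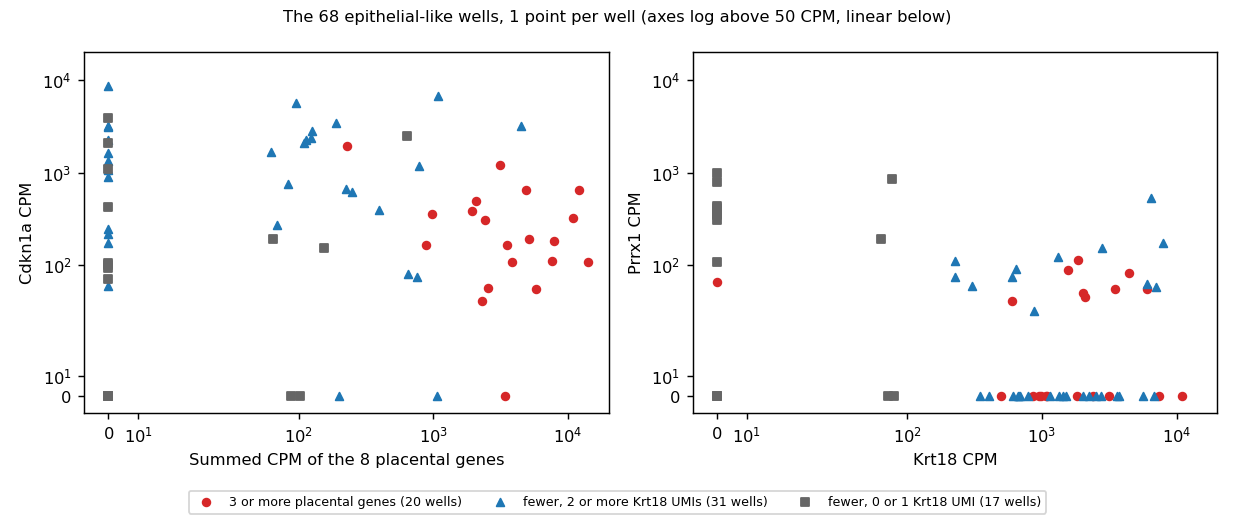
The 68 epithelial-like wells with 1 point per well, by the summed CPM of the 8 placental genes and Cdkn1a (left panel), and by Krt18 and Prrx1 (right panel); axes are logarithmic above 50 CPM and linear below. In the left panel most wells of the first kind (circles) lie to the right, 4 of them at 500 CPM of Cdkn1a or more. The kinds overlap along this axis, since they were split by the number of placental genes detected and not by the summed level. Wells of the second kind (triangles) reach 8579 CPM of Cdkn1a. Wells of the third kind (squares) hold Prrx1 in 12 of 17 with at most 1 UMI of Krt18.

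At later time points the same rule found other wells. Both wells found at T3 had Krt7, and 1 of them held 25 UMIs of Rhox6 and 57 of Rhox9. The 17 wells found at T6 and T9 had no Krt7 at all and met the rule through Cldn6 and Cdh1. In these 17 wells, Srgn, a proteoglycan gene, was found in 17, the endoderm factors Gata4 in 17 and Sox17 in 13, Dab2 in 17, and the laminin gene Lama1 in 16, and Rhox9 in 0. Pooled over them, Srgn was at 3936 CPM, Lama1 at 2183 CPM, and Gata4 at 534 CPM, against 41.9, 40.2, and 5.21 CPM in the other wells of these times. Among the 68 T0 wells, Srgn was found in 1, Sox17 in 3, and Lama1 in 9. The 17 wells also had Krt18, in 15 of them, Krt8, in 7, and Rhox5, in 16. Pooled levels of these 3 genes were 418, 45.5, and 978 CPM against 11.8, 1.01, and 37.5 CPM in the other wells of these times. Of the 68 T0 wells, 54 had Krt18, 41 Krt8, and 21 Rhox5, at pooled levels of 2011, 199.8, and 176 CPM. The difference between the gated wells of T0 and of later times was not tested.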

How the data were processed

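Deposited UMI counts per gene and well of 12 CEL-Seq2 plates were used, with groups and plate numbers from the sample titles. For these counts the authors used HISAT2 2.2.1 on GRCm38 after trimming in Trim Galore, featureCounts to assign reads to genes, and UMI-tools 1.0.1. The annotation release and the use of strand are not given in the sources used here. Wells with 200 or more genes were kept, and 3 entries outside Ensembl (0.0642% of UMIs) were left out. Doublets had been excluded in the sort, and no doublet caller was run. UMIs were summed per plate and set, and edgeR 4.0.16 (R 4.3.3) fitted the quasi-likelihood test with TMM scaling, plate as a term, and edgeR's filter on low counts, with Benjamini-Hochberg adjustment over all tested genes. The 5 rule genes entered library sizes but not the test. The plate term was kept because both sets come from the same plates and libraries, with deviations that correlated at 0.129 to 0.248 against the other wells and at 0.0660 to 0.123 against the pluripotent-like wells. DESeq2 1.42.0 was an alternative. Random thinning brought each well to 3000 UMIs. Coordinates of genes are from GENCODE M21, and those of the promoter windows are from RefSeq. The named genes were the 10 largest differences in each direction among genes past the threshold, with at least 50 CPM in the higher set and plates that did not overlap, and genes of the 29 lists were named after their values were seen. The members, lists, and tests were chosen with earlier results of these data known. On simulated counts the test recovered 46.9% of genes changed 2-fold and 88.7% changed 4-fold among 11135 genes against the other wells, and 54.3% and 97.8% among 6304 genes against the pluripotent-like wells. These counts were drawn with the same fixed dispersion for every gene, no plate effect, and no difference between single wells. The rates therefore do not give the power of the test on the real sums. A gene that this rule named and a promoter sequence are not reported here. A bulk table and a barcode list of the series were not used.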

Additional observations from a re-analysis of the deposited data

How the results depend on the processing

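The mean share of epithelial-like wells moved from 5.93% to 2.62% when 5 or more UMIs and all 3 gate genes were required, and to 2.88% when Krt7 and Cldn6 alone were required. Leaving out each plate in turn gave 4.57 to 6.93%. The 1596 genes called against the other T0 wells became 1057 with DESeq2 (706 higher and 351 lower), 600 after thinning to 3000 UMIs, for which 7553 genes could be tested, and 2558 with 10 or more gate UMIs, an alternative chosen after seeing the data. Leaving out each plate in turn gave 922 to 1658, the lowest without plate 3. The 2019 genes called against the pluripotent-like wells became 957 with DESeq2 (528 higher and 429 lower) and 308 after thinning, for which 1303 genes could be tested. Leaving out each plate in turn gave 1141 to 1828, the lowest without plate 1. With no replicate block, that is without the plate term, 1890 and 1895 genes were called, and no filter on low counts gave 1851 of 24939 tested genes against the other wells. Fewer genes could be tested after thinning and fewer wells enter under the stricter gates, by construction, and the cause of the other differences was not tested.

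Of the genes followed through the alternatives, Stxbp6, Wasf1, and Snai2 no longer passed the threshold against the other wells after thinning. Against the pluripotent-like wells the log2 fold change of Prrx1, 0.72 and not called, turned to -0.99 with 5 or more UMIs and all 3 gate genes, to -0.56 with Krt7 and Cldn6 alone, and to -0.996 with 10 or more gate UMIs. That of Zeb1, -0.12 and not called, ranged from -0.297 to 0.0495 as plates were left out, the latter without plate 3. Against the other wells 499 values of named genes kept direction and side of the threshold, and against the pluripotent-like wells 393. Of the counts per list, 305 and 199 stayed within 1.5 times and 45 and 53 did not. Summed counts of 184084 to 496219 UMIs per plate limit genes below about 10 CPM to a few UMIs.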
